A study of Homo sapiens with 4 samples.

Results

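The genes described here are 10 genes of iron uptake, storage, export and sensing, namely TFRC, SLC11A2, STEAP3, FTH1, FTL, NCOA4, SLC40A1, IREB2, ACO1 and HMOX1. They were chosen by name, and each matched 1 of the 35767 rows of a table of RNA sequencing read counts per gene. It covers 4 libraries made from SAS cells, a cell line of human tongue squamous carcinoma. The 2 siControl libraries carry the genotype label WT. The 2 libraries labelled siNAT10, against the RNA acetyltransferase gene NAT10, carry the genotype labels NAT10 knockdown (replicate 1) and NAT11 knockdown (replicate 2). The titles number the libraries as biological replicates but name no separate cultures. The p-values therefore rest only on how far these libraries spread, and that spread may be technical. For each gene the spread was moderated by that of all tested genes. The siRNA sequences and the time after transfection were not stated in the labels.

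Cells take up iron bound to transferrin through the transferrin receptor (TFRC). In the endosome STEAP3 reduces it, and SLC11A2 (DMT1) carries it into the cytosol. Iron that is not used is stored in ferritin, a shell of heavy (FTH1) and light (FTL) chains, and NCOA4 delivers ferritin to the lysosome to release the iron. SLC40A1 (ferroportin) exports it, and HMOX1 frees it from haem. When cytosolic iron is low, the iron regulatory proteins ACO1 (IRP1) and IREB2 (IRP2) bind a short hairpin, the iron-responsive element, in several of these mRNAs. Bound in the 5′ UTR it blocks translation, and bound in the 3′ UTR of TFRC it protects the mRNA from decay. Counts of mRNA therefore bear on TFRC in another way than on ferritin, whose control by iron acts largely on translation.

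The letters of the element divide the 10 genes, so they are shown before the values. UTRs of GENCODE release 29 transcripts (GRCh38) were searched on the transcript strand for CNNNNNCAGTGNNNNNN, a bulged C, an upper stem and the loop. The 5 bases on each side of the loop were then compared, counting G-T as a pair. In each line the bulged C and the loop are in capitals, and 6 bases on each side are included. The 7 matches with 5 of 5 upper-stem pairs lay in 4 of the 10 genes, 4 in the 3′ UTR of TFRC and 1 in the 5′ UTR of each of FTH1, FTL and SLC40A1.
TFRC match 1, chr3:196050979-196051007, minus strand: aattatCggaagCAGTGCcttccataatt
TFRC match 2, chr3:196050575-196050603, minus strand: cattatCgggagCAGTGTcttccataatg
TFRC match 3, chr3:196050510-196050538, minus strand: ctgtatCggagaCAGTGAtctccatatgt
TFRC match 4, chr3:196050463-196050491, minus strand: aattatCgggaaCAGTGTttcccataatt
FTH1, chr11:61967574-61967602, minus strand: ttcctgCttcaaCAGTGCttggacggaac
FTL, chr19:48965335-48965363, plus strand: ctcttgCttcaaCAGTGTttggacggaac
SLC40A1, chr2:189580661-189580689, minus strand: caacttCagctaCAGTGTtagctaagttt
SLC11A2, 3′ UTR, chr12:50988269-50988297, minus strand: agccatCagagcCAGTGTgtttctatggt

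The SLC11A2 letters had 4 of 5 upper-stem pairs. FTH1 and FTL were identical at 26 of 29 bases, and TFRC matches 1 and 2 at 25 of 29. IREB2 and ACO1 each held 1 match with 4 of 5 pairs in the 3′ UTR, a class found in many genes, and STEAP3, NCOA4 and HMOX1 held none. Of 19669 genes with a coding transcript, 0.183% had a match with 5 of 5 pairs in a 5′ UTR and 0.671% in a 3′ UTR. With at least 4 of 5 pairs the shares were 1.48% and 4.61%. A match is a description of letters and was not tested for binding. Each of these matches lay inside the exons counted for its gene.

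Total counts ranged from 30794757 to 36341785 per library. The mRNA of NAT10 was at 240.4 and 231 CPM in siControl replicates 1 and 2 (counts scaled to library size with TMM factors) and at 253 and 248 CPM under the label siNAT10, a log2 fold change of 0.09 ± 0.06 (SE over 2 libraries per group, edgeR quasi-likelihood adjusted p = 0.293). A knockdown of this mRNA is thus not seen in the counts, and "higher" or "lower" here compares the libraries by their labels, siNAT10 with siControl. Of 8 squamous epithelial markers, 7 matched rows and 5 had a mean of at least 1 CPM. KRT17 and SFN were high, while KRT5 (0.0929 CPM in siControl), TP63 (0.931 CPM) and EPCAM (7.88 CPM) were low. The summed squamous markers lay at 1080 and 1109 CPM in siControl and at 814 and 861 CPM in siNAT10, and the part of this difference in the results was not tested. KRT17 (844 to 565 CPM), EPCAM (7.88 to 3.97 CPM) and KRT14 (4.08 to 1.91 CPM) were called lower. TP63 and CDH1 were lower too but were not called. Of the tested markers, SFN alone was higher (236 to 265 CPM, by 0.17 on the log2 scale, edgeR adjusted p = 0.0451). None of 4 matched erythroid markers reached a mean of 1 CPM.

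Of the 10 genes, 9 had enough counts to be tested, and 5 of these (TFRC, FTL, NCOA4, IREB2 and HMOX1) rose in the libraries labelled siNAT10 while none fell. Over all 20098 tested genes, 40.4% were called at an adjusted p under 0.05, 19.7% as higher and 20.7% as lower. Their median log2 fold change was -0.0079, against 0.29 over the 9 genes. The CPM of the groups did not overlap for 6 of the 9 genes, against 69.5% of all tested genes. That share is near the background. With a filter of at least 50 counts in 2 libraries, 7556 of 15430 genes were called, a larger share than 40.4%. There 5 of the 9 genes were called higher. With libraries scaled by their totals alone the median of all genes moved to -0.12, 4 of the 9 genes were called higher (NCOA4 no longer) and 2 lower (FTH1 and STEAP3).

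**Figure D1:**
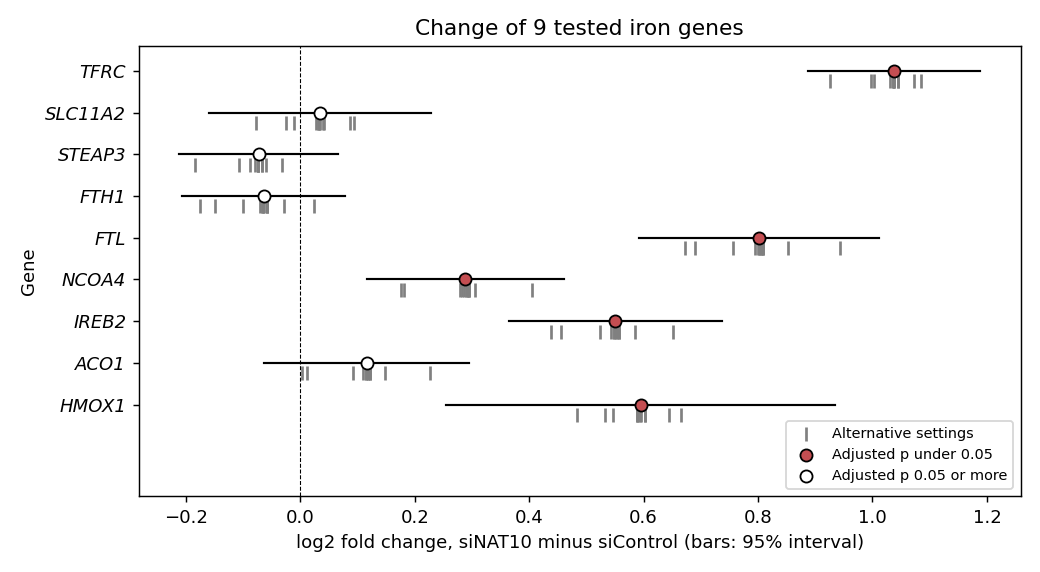
Change of the 9 tested genes on the log2 scale, siNAT10 minus siControl. Circles are the estimates, bars their 95% intervals and grey ticks the values under the alternative settings; TFRC stands highest at 1.04, and SLC11A2, STEAP3, FTH1 and ACO1 have intervals that include 0.

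Levels of different genes were compared as RPKM, that is CPM per kilobase of exon. The lengths join all annotated exons of a gene, 7887 bp from 103 entries for TFRC and 878 bp from 4 for FTL. Close ranks therefore depend on the annotation. In siControl, FTH1 was the most abundant of the 10 at a mean of 315 RPKM, followed by STEAP3 at 25.1, FTL at 20.3, NCOA4 at 10.7, TFRC at 5.45 and ACO1 at 4.90 RPKM. IREB2 (2.41 RPKM) and SLC11A2 (2.38 RPKM) could not be ordered, since their libraries overlapped. HMOX1 stood at 1.65 RPKM and SLC40A1 at 0.0184 RPKM. In the libraries labelled siNAT10, FTL at 35.4 RPKM stood above STEAP3 at 23.9 RPKM. TFRC reached 11.2 RPKM there, close to NCOA4 at 13.1 RPKM. HMOX1 (2.49 RPKM) and SLC11A2 (2.44 RPKM) overlapped. In bulk RNA, a change in the share of cells that express a gene and a change in the RNA per cell cannot be told apart.

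**Figure D2:**
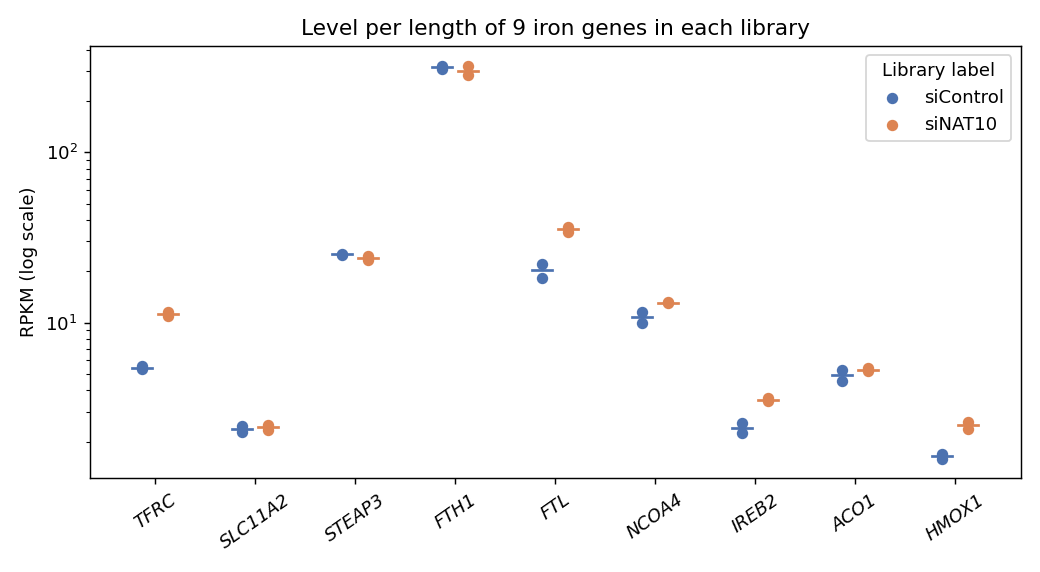
RPKM of 9 of the genes in each library on a log axis, with dots for libraries and lines for group means. FTH1 lies near 315 RPKM in siControl and 301 RPKM in siNAT10, far above the others, and the siNAT10 dots of TFRC, FTL, NCOA4, IREB2 and HMOX1 lie above their siControl dots.

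Among the uptake genes, TFRC rose and its endosomal partners did not pass the test. TFRC, the receptor for iron-loaded transferrin (chromosome 3, 196027183 to 196082189), was at 44.1 and 41.9 CPM in siControl replicates 1 and 2 and at 85.8 and 90.9 CPM in siNAT10 replicates 1 and 2. Both siNAT10 libraries thus stood well above both siControl libraries, 2.05-fold on average. The log2 fold change was 1.04 ± 0.07 (95% interval 0.89 to 1.19, edgeR adjusted p = 1.29e-09), and it lay between 0.93 and 1.08 under the 12 alternative settings, with the call held in each.

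SLC11A2, the carrier of ferrous iron out of the endosome (chromosome 12, 50979401 to 51028566), was at 24.3 and 22.4 CPM in siControl and at 23.1 and 24.7 CPM in siNAT10. The groups overlapped, and the log2 fold change was 0.03 ± 0.09 (95% interval -0.16 to 0.23, edgeR adjusted p = 0.803). Its sign changed when the libraries were scaled by their totals or when siControl replicate 2 or siNAT10 replicate 2 was left out. STEAP3, the endosomal ferrireductase (chromosome 2, 119223831 to 119265652), was at 115.8 and 113 CPM in siControl and at 106 and 112 CPM in siNAT10. The siNAT10 libraries were lower without overlap, but by little, with a log2 fold change of -0.07 ± 0.07 (95% interval -0.21 to 0.07, edgeR adjusted p = 0.413). With totals alone it was called lower (-0.18, adjusted p = 0.0334, range over 12 alternatives 0.0334 to 0.843). The antisense row STEAP3-AS1 shares 500 bp of the 4562 bp of STEAP3 exon length, and without a stated strand setting reads of the pair cannot be told apart.

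The chains of ferritin differed in their values. FTL, the light chain (chromosome 19, 48965301 to 48966878), was at 19.5 and 16.1 CPM in siControl and at 32.1 and 30.0 CPM in siNAT10. Both siNAT10 libraries were above both siControl libraries, 1.74-fold on average. The log2 fold change was 0.80 ± 0.10 (95% interval 0.59 to 1.01, edgeR adjusted p = 3.07e-06), and the call held under each of 13 alternatives. FTH1, the heavy chain with the ferroxidase activity (chromosome 11, 61959718 to 61967660), was at 624 and 655 CPM in siControl and at 576 and 648 CPM in siNAT10. Its groups overlapped, since siNAT10 replicate 2 stood between the siControl libraries. The log2 fold change was -0.06 ± 0.07 (95% interval -0.21 to 0.08, edgeR adjusted p = 0.487). Without siNAT10 replicate 1 it was 0.02, and with totals alone it was called lower (-0.18, adjusted p = 0.0442, range over 13 alternatives 0.0442 to 0.884).

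The ratio of FTH1 to FTL, both per length, was 13.9 and 17.6 in siControl and 7.76 and 9.34 in siNAT10. Every siNAT10 library thus held fewer heavy-chain reads per light-chain read than every siControl library. The mean log2 ratio was 3.96 (SD 0.24, n = 2) and 3.09 (SD 0.19, n = 2), a difference of -0.87 (exact two-sided permutation p = 0.333, the smallest that 2 against 2 libraries allow). FTH1 and FTL have near-identical processed pseudogenes, so their rows are uncertain where reads could be split. The 17 FTH1P rows together held between 330 and 429 counts per library, 1.36% to 2.15% of the FTH1 count. The 6 FTLP rows held between 5 and 14 counts, at most 1.58% of the FTL count. With pseudogene counts added, the log2 fold changes were -0.06 for FTH1 and 0.80 for FTL. These rows hold only reads that were assigned to them. Any reads left out because they fit both a gene and a pseudogene would be in no row. The shares therefore do not bound such a loss, and its effect on the levels and the ratio was not tested. Of 11 tested FTH1P rows, FTH1P3 alone was called (log2 fold change 1.97, edgeR adjusted p = 0.0164), on 12 and 2 counts in siControl and 34 and 14 counts in siNAT10. It was chosen for naming after its values were seen.

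A larger overlap affects FTH1. The bestrophin gene BEST1 lies on the opposite strand, and its row shares 62.4% of the exon length counted for FTH1. BEST1 was at 404 and 399 CPM in siControl and at 392 and 457 CPM in siNAT10, a log2 difference of 0.08 ± 0.07 (edgeR adjusted p = 0.388). The BEST1 row held 15371 and 14808 counts in siControl and 13581 and 13494 in siNAT10. The FTH1 row held 23761 and 24307 counts in siControl and 19926 and 19114 in siNAT10. Whether reads in the shared bases were counted in both rows was not tested, so the levels of both are uncertain. No row overlapped the exons of FTL.

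NCOA4, the cargo receptor that carries ferritin to the lysosome (chromosome 10, 46005088 to 46030714), rose by a small amount. It was at 47.2 and 40.3 CPM in siControl and at 53.0 and 53.9 CPM in siNAT10. The siNAT10 libraries were higher without overlap, while the siControl libraries differed from each other by more than the siNAT10 pair did. The log2 fold change was 0.29 ± 0.08 (95% interval 0.12 to 0.46, edgeR adjusted p = 0.00842). Leaving out siControl replicate 2 ended the call (0.18, adjusted p = 0.0951), as did totals alone (0.18, adjusted p = 0.103), while 10 of 12 alternatives kept it. Without siControl replicate 1 the value was 0.40.

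SLC40A1, the iron exporter ferroportin (chromosome 2, 189560579 to 189583758), was near the limit of detection. It had 4 and 2 counts in siControl and 0 and 14 counts in siNAT10, so it was not tested. The siNAT10 libraries held the lowest and the highest count, and the siControl counts lay between them. A count of 0 allows up to 3 counts, that is 0.0867 CPM in siNAT10 replicate 1, for counting error only and if each count is independent. If both mates of a pair were counted, this limit would be higher. A change of ferroportin mRNA was not detectable at this depth, and with no count filter the edgeR adjusted p was 0.439.

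**Figure D3:**
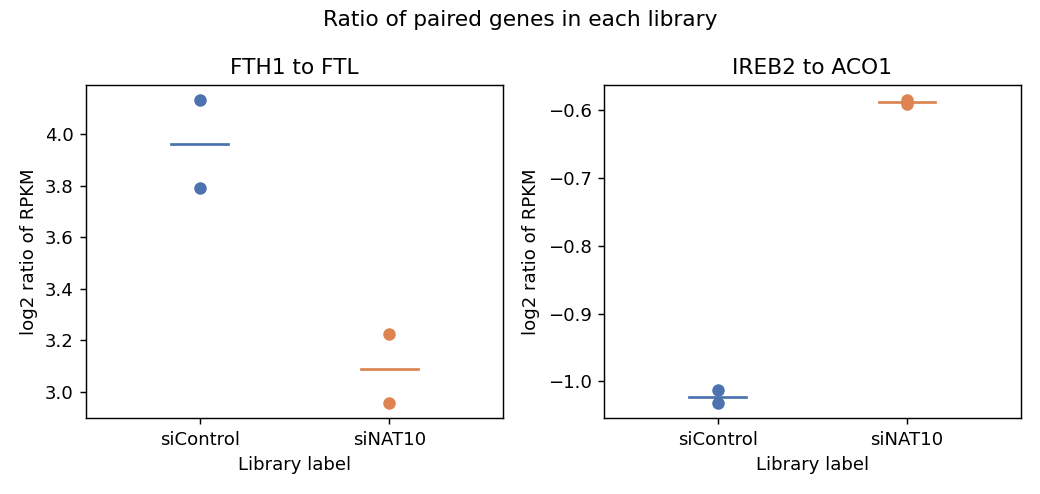
Log2 ratio of FTH1 to FTL and of IREB2 to ACO1 per length in each library, with dots for libraries and lines for group means. The FTH1 to FTL means are 3.96 in siControl and 3.09 in siNAT10, and the IREB2 to ACO1 means are -1.02 and -0.59.

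Of the iron regulatory proteins, IREB2 rose and ACO1 did not pass the test. IREB2, which is controlled by degradation of its protein when iron is plentiful (chromosome 15, 78437431 to 78501456), was at 27.8 and 24.3 CPM in siControl and at 37.4 and 39.0 CPM in siNAT10. Both siNAT10 libraries stood above both siControl libraries, 1.47-fold on average. The log2 fold change was 0.55 ± 0.09 (95% interval 0.36 to 0.74, edgeR adjusted p = 5.65e-05), and the call held under each of 12 alternatives. ACO1, which switches between a cytosolic aconitase with an iron-sulfur cluster and an RNA-binding form without it (chromosome 9, 32384603 to 32454769), was at 39.8 and 34.2 CPM in siControl and at 39.4 and 40.9 CPM in siNAT10. Its groups overlapped, with siControl replicate 2 as the lowest library and a log2 fold change of 0.12 ± 0.09 (95% interval -0.06 to 0.30, edgeR adjusted p = 0.304). The value was 0.23 without siControl replicate 1 (adjusted p = 0.0502) and 0.01 without siControl replicate 2 (adjusted p = 0.94), and 0.0033 with totals alone, with an adjusted p from 0.0502 to 0.979 over 12 alternatives.

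The ratio of both genes was close between the 2 libraries of each group. IREB2 stood at 0.489 and 0.496 of ACO1 per length in siControl and at 0.664 and 0.667 in siNAT10. The replicates thus nearly coincided, and the groups were apart. An SD of 2 values is poorly known, and counting error alone could be larger, so this closeness does not show a steady ratio. The mean log2 ratio differed by 0.43 between the groups, with SDs of 0.014 in siControl and 0.0045 in siNAT10 (exact two-sided permutation p = 0.333, the smallest possible). ACO1 was the more abundant in every library.

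HMOX1, the inducible haem oxygenase that opens the haem ring and releases its iron (chromosome 22, 35380361 to 35394214), was low in all libraries and rose. It had 156 and 142 counts in siControl and 198 and 185 in siNAT10, that is 4.10 and 3.83 CPM against 5.72 and 6.27 CPM. The groups did not overlap, and the fold was 1.51. The log2 fold change was 0.60 ± 0.16 (95% interval 0.25 to 0.94, edgeR adjusted p = 0.00637), with the widest interval of the 9 genes. The call held under each of 12 alternatives, with an adjusted p of 0.0466 when siNAT10 replicate 2 was left out. HMOX2, the constitutive enzyme, had means of 104 CPM (siControl) and 93.1 CPM (siNAT10) (log2 fold change -0.16 ± 0.07, edgeR adjusted p = 0.0709), and its exons overlap those of NMRAL1.

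Read by the position of the element, TFRC with its 4 3′ UTR matches rose by 1.04 on the log2 scale, while the genes with a 3′ match of 4 of 5 pairs, SLC11A2, ACO1 and IREB2, stood at 0.03, 0.12 and 0.55. Of the genes with a 5′ match, FTL stood at 0.80 and FTH1 at -0.06, although their letters differ at 3 of 29 bases. STEAP3, NCOA4 and HMOX1, without a match, stood at -0.07, 0.29 and 0.60. Genes with a letter match in the same UTR thus did not share 1 value. Whether the element acts on these mRNAs in these cells was not tested, and the FTH1 value is uncertain because its exons overlap those of BEST1. Of 6 other transcripts listed for a published element, 2 fell and none rose, with a median log2 fold change of -0.32. The share called, 33.3%, was no higher than the 40.4% of all tested genes. The median is unsteady, since it includes ALAS2, which held 4 and 20 counts in siControl and 10 and 3 in siNAT10. ALAS2 stood at -0.66 (95% interval -2.23 to 0.91) and was named after its values were seen. CDC14A, a phosphatase gene with a 3′ element, fell from 10.8 to 6.27 CPM (-0.78 ± 0.13, edgeR adjusted p = 7.43e-05, overlapping RP5-837M10.4), and the kinase gene CDC42BPA fell from 112 to 76.9 CPM (-0.54 ± 0.08, overlapping an antisense row). EPAS1, the gene of HIF2 alpha with a 5′ element, stood at -0.10 ± 0.07 (edgeR adjusted p = 0.281).

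The profile of TFRC over the 4 libraries was nearest to those of NCL, NPM1 and MYL6B among 9324 genes with a mean of at least 10 CPM. Likeness was the distance between the log2 CPM values taken relative to the siControl mean of each gene, and it was 0.011, 0.039 and 0.052. These genes had log2 fold changes of 1.04, 1.05 and 1.03. MYL6B overlaps MYL6. With 4 libraries in 2 groups, such likeness reflects mainly a like fold change.

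The wider list of iron and haem genes moved in both directions. Of 94 names, 85 were tested, and 19 rose and 25 fell, with a median log2 fold change of -0.096 beside -0.0079 over all tested genes. The share called, 51.8%, stands beside 40.4% of all tested genes. With at least 50 counts in 2 libraries, 7556 of 15430 genes were called, a larger share than 40.4%. No list was set against genes of like counts. The list of uptake and reduction is mixed and was not split by route of uptake. Of its 10 tested genes, 6 fell and 1 rose, with a median of -0.50. The share called was 70%, and over all tested genes 20.7% were called lower. Among the 6, STEAP1 held only 31 and 30 counts in siControl and 6 and 2 in siNAT10. STEAP1 was named after its values were seen. SCARA5, a receptor for ferritin, was at 177 and 198 CPM in siControl and at 51.5 and 47.8 CPM in siNAT10. It thus fell 3.77-fold (-1.91 ± 0.08, edgeR adjusted p = 4.89e-13, overlapping RP11-597M17.1). SLC39A14 (ZIP14), a carrier of iron not bound to transferrin, fell from 105 to 65.0 CPM (-0.69 ± 0.07, edgeR adjusted p = 1.35e-07). LTF, the gene of lactotransferrin, fell from 3.75 to 0.806 CPM (-2.19 ± 0.28), with 37 and 16 counts in siNAT10. TFR2, the second transferrin receptor, was the 1 that rose, from 5.01 to 7.72 CPM (0.62 ± 0.18, edgeR adjusted p = 0.0082), and was named after its values were seen.

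**Figure D4:**
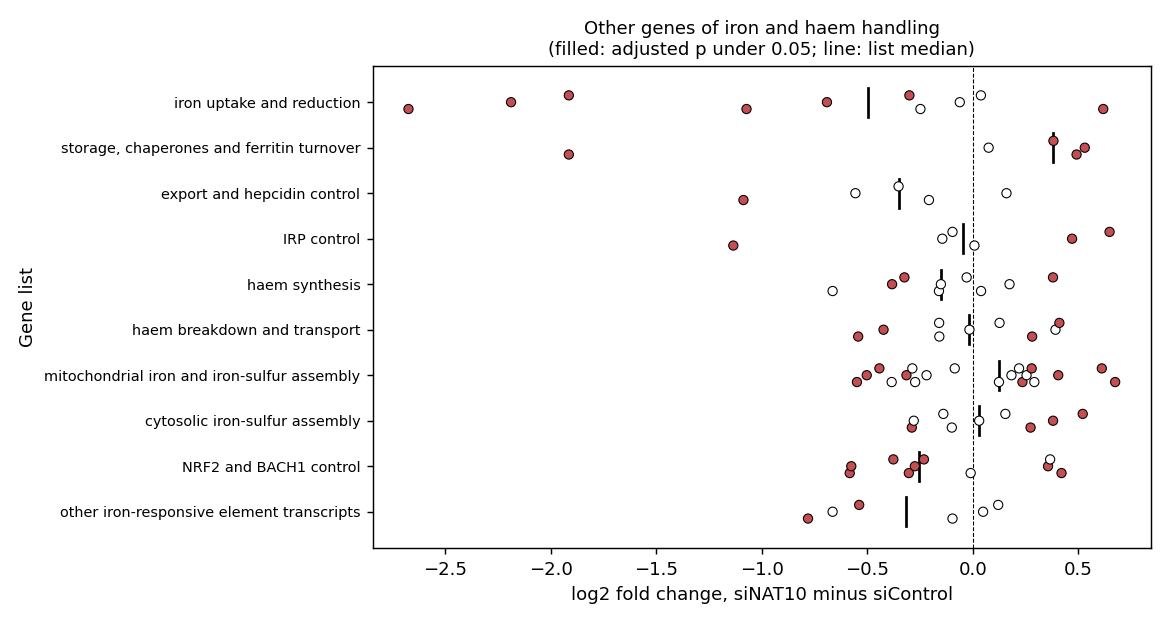
Log2 fold changes of the other iron and haem genes by list, siNAT10 minus siControl, with filled dots for genes called at an adjusted p under 0.05 and lines for list medians. The list medians run from -0.50 for uptake and reduction to 0.38 for storage, and most lists hold called genes on both sides of 0.

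Some genes that turn over ferritin and IREB2 protein were called too. In the list of storage, chaperones and ferritin turnover, 3 of 5 tested genes rose and 1 fell, the latter SCARA5, which is in both lists. The share called in this short list was 80%, beside 40.4% of all tested genes. TAX1BP1, an autophagy receptor that acts in ferritin turnover, rose from 299 to 431 CPM (0.53 ± 0.07, edgeR adjusted p = 3.29e-06, overlapping JAZF1 and AC004549.6). HERC2, a ubiquitin ligase that targets NCOA4, rose from 80.9 to 114 CPM (0.49 ± 0.07). In the list of regulatory protein control, 2 of 6 rose and 1 fell, that is 3 of 6 called beside 40.4% of all tested genes. SKP1 (0.65 ± 0.07, overlapping TCF7 and CTD-2410N18.5) and CUL1 (0.47 ± 0.07, overlapping RP5-1136G13.2), subunits of the ligase that degrades IREB2, rose. RBCK1, another ubiquitin ligase linked to IREB2, fell from 64.7 to 29.5 CPM (-1.13 ± 0.08, edgeR adjusted p = 2.19e-09). FBXL5, the iron-sensing subunit of the first ligase, was at 19.5 and 18.7 CPM in siControl and at 17.6 and 16.9 CPM in siNAT10 (-0.14 ± 0.10, edgeR adjusted p = 0.257). Among 5 tested genes of export and hepcidin control, BMP6, an inducer of hepcidin, fell from 49.8 to 23.5 CPM (-1.09 ± 0.09, edgeR adjusted p = 9.97e-09), and the other 4 did not pass the test. That is 20% called, below the 40.4% of all tested genes.

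In the lists of haem and of iron-sulfur assembly, called genes lay on both sides, and between 33.3% and 47.4% of a list was called, near the 40.4% of all tested genes. In haem synthesis, 1 of 9 rose and 2 fell. ALAS1, the first enzyme of the pathway, fell from 99.9 to 76.7 CPM (-0.38 ± 0.07, edgeR adjusted p = 1.60e-04), and UROS, a later enzyme, rose from 11.3 to 14.8 CPM (0.38 ± 0.12, edgeR adjusted p = 0.015). In haem breakdown and transport, 2 of 9 rose and 2 fell. BLVRB, a biliverdin reductase downstream of haem oxygenase, fell from 30.7 to 21.0 CPM (-0.54 ± 0.09), and the haem exporter gene FLVCR1 rose from 19.3 to 25.7 CPM (0.41 ± 0.11, edgeR adjusted p = 0.00402). SLC46A1 fell by 0.42 on the log2 scale, but SARM1 shares 56.4% of its exon length. In mitochondrial iron and iron-sulfur assembly, 5 of 19 rose and 4 fell. The iron importer gene SLC25A37 (mitoferrin 1) fell from 65.4 to 46.1 CPM (-0.50 ± 0.07), while the assembly genes BOLA3 (0.61 ± 0.11) and GLRX5 (0.67 ± 0.14) rose. SNHG10 shares 391 bp of the GLRX5 exons and rose by 0.77. It held 234 and 190 counts in siControl beside 279 and 234 for GLRX5, so the GLRX5 rise is uncertain. HSPA9, the most abundant gene of that list, stood at 0.12 ± 0.06 (edgeR adjusted p = 0.117). In cytosolic assembly, 3 of 9 rose and 1 fell, with FAM96A (0.52 ± 0.07) and MMS19 (0.38 ± 0.09) up and NUBP1 (-0.29 ± 0.08) down. TVP23A, a row with more counts, shares 36.1% of the NUBP1 exon length.

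NRF2 activates and BACH1 represses the transcription of HMOX1 and ferritin genes. In the list of NRF2 and BACH1 control, which also holds NRF2 targets, 6 of 10 fell and 2 rose, with a median of -0.25. The share called was 80%, beside 40.4% of all tested genes, of which 19.7% were higher and 20.7% lower. MAFK (131 to 87.6 CPM, -0.58 ± 0.07, edgeR adjusted p = 9.24e-07, overlapping TMEM184A) and MAFG (75.9 to 50.9 CPM, -0.58 ± 0.07, overlapping SIRT7 and RP11-498C9.12), small partners of both factors, fell. TXNRD1, a thioredoxin reductase and NRF2 target, rose from 550 to 736 CPM (0.42 ± 0.06, edgeR adjusted p = 2.29e-05). The targets NQO1 (-0.38 ± 0.07, edgeR adjusted p = 1.66e-04) and SRXN1 (-0.27 ± 0.08, edgeR adjusted p = 0.0115) fell, and GCLM (0.36 ± 0.13, edgeR adjusted p = 0.0362) rose. NFE2L2, the NRF2 gene itself, was at 59.4 and 54.8 CPM in siControl and 49.3 and 48.0 CPM in siNAT10 (-0.23 ± 0.07, edgeR adjusted p = 0.0183). BACH1, the repressor of HMOX1, was at 28.9 and 27.4 CPM in siControl and 22.9 and 22.8 CPM in siNAT10 (-0.30 ± 0.09, edgeR adjusted p = 0.01). FBXL5, NFE2L2, BACH1, NQO1, SRXN1 and GCLM were named for their roles, after their values were seen.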

How the data were processed

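The authors deposited raw read counts for each gene. The submitters' processing notes name GRCh38, featureCounts, STAR 2.5.3a and fastp 0.23.4. The annotation release and the strand setting are not given in the labels. Between 72.0% and 73.5% of counts from 1 to 50 were even, as counting both mates of a pair would give. Genes and lists were chosen with earlier results of these data known. Columns were matched to libraries by name. Counts were tested in R 4.3.3 with edgeR 4.0.16 (filterByExpr, TMM, robust glmQLFit, glmQLFTest, two-sided, group only, 2 residual degrees of freedom). The p-values were adjusted by Benjamini-Hochberg over 20098 genes, with 0.05 as threshold. The variance of each gene was moderated across genes, so tests and intervals used more than these 2 degrees of freedom. SEs are log2 fold changes divided by the root of F. The fit was tested on simulated data. Alternatives used DESeq2 1.42.0, limma 3.58.1, other scalings and filters, halved counts, a replicate block and each library left out. A floor of 3 counts was 0.0788 to 0.102 CPM, and it would be higher if both mates of a pair were counted. Counts within each pair differed beyond sampling noise (chi-square per degree of freedom 8.68 in siControl and 5.14 in siNAT10), so neither pair was 1 column deposited again. Whether a pair came from 1 RNA sample was not tested. RPKM used the deposited lengths. The 10 gene positions equalled those of GENCODE release 29. From each list the 3 called genes with the smallest adjusted p and the gene with the highest mean CPM were named. A gene that this rule names is not reported here.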

Additional observations from a re-analysis of the deposited data

How the results depend on the processing

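Scaling by library totals alone had the clearest effect. It gave 2 of the 10 genes called lower, FTH1 and STEAP3, where TMM scaling gave 0, and SLC11A2 turned to -0.078. It moved the calls over all genes from 3951 higher and 4169 lower to 2688 higher and 5604 lower. SLC11A2 also turned without siControl replicate 2 (-0.025) and without siNAT10 replicate 2 (-0.011), with a range from -0.025 to 0.094 over the libraries left out. FTH1 turned without siNAT10 replicate 1 (0.023), with a range from -0.15 to 0.023; none of these 4 values was called, and the cause was not tested. The count of the 10 genes called higher stayed between 4 and 5 over 12 alternatives, and the count over all genes between 6128 and 8292, the lowest without siNAT10 replicate 2. With the replicate number as a block, 8254 genes were called, 5 of the 10 genes were higher and 0 lower. The labels do not say that a number marks a shared batch, and the deviations of same-numbered libraries did not move together across genes (r = -0.019), so the numbers were not taken as pairs. With libraries left out, the FTH1 to FTL difference ranged from -1.04 to -0.70 and the IREB2 to ACO1 difference from 0.42 to 0.44; a lone library was assumed to vary like the other group. Depth limits SLC40A1, and HMOX1 rests on 142 to 198 counts per library.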
